A study of Mus musculus with 15 samples.

Results

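Transcripts of 10 genes used as markers of stromal and adipocyte progenitor cells were followed in cultured mouse adipocytes kept at 31°C. The genes were Pdgfra, Pdgfrb, Thy1, Ly6a, Cd34, Prrx1, Twist1, Twist2, S100a4 and Nt5e, chosen by name. They are 10 of the 18804 genes in the count table, and all 10 were among the 14293 genes with enough reads to be tested. RNA sequencing was done on 15 libraries in 3 groups of 5. All cells were of the C57BL/6J strain, with no altered allele named, and the age of the mice was not given in the sources used here. The cells were mesenchymal stem cells, isolated from ears according to the study's methods, and had been turned into adipocytes with methylisobutylxanthine, dexamethasone, insulin and a thiazolidinedione in medium with fetal bovine serum. The labels name troglitazone as that last agent, while the study's methods name troglitazone for adipocyte precursors and rosiglitazone under cell culture. Day 0 cells stayed at 37°C, day 1 cells were moved to 31°C on day 15 of differentiation, and day 12 cells were moved on day 4. All were harvested on day 16, so the day 12 cells spent most of their maturation at 31°C while the day 1 cells met it as formed adipocytes. The sources do not state if a group's 5 libraries are separate mice or dishes, so p-values measure only the spread between these libraries, which may be technical.

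Fat cells arise from mesenchymal progenitors that lie in the stroma of the tissue. These progenitors carry receptors for platelet-derived growth factors and surface proteins that are used to sort them, and they express transcription factors of the limb and craniofacial mesenchyme. As cells mature into adipocytes, such genes commonly decline while genes for lipid storage come on, but cultures differentiated in a dish usually keep some undifferentiated stromal cells. In RNA from a whole culture, fewer cells of a type and less RNA per cell cannot be told apart.

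By day 12 the markers had gone separate ways. S100a4, which encodes a small calcium-binding protein widely used to label fibroblasts, rose 3.48-fold against day 0. Twist2, a basic helix-loop-helix transcription factor of the dermal mesenchyme, rose 1.56-fold. Ly6a, which encodes the progenitor surface antigen Sca-1, fell 2.67-fold, and Nt5e, which encodes the adenosine-producing enzyme CD73, fell 1.56-fold. The call of Nt5e rests on the scaling used here and was lost under 3 of the 4 other scalings tried, while that of Ly6a was lost under 1. The other 6 did not pass the test, which asked for an adjusted p under 0.05 over all tested genes and a fold change over 1.5. Of these, Pdgfrb and Prrx1 were called higher under 3 of the 4 other scalings. The 2 members that rose stand against 13% of all tested genes called higher, and the 2 that fell against 16.2% called lower. After 1 day S100a4 alone was called higher, against a background of 7.71%, and no member was called lower, against 13.4%. Without the fold limit, the adjusted p of edgeR passed for 5 members above and 3 below day 0 at day 1, against 35.3% and 36.2% of all tested genes, and for 6 above and 2 below at day 12, against 39.2% and 37.4%. The median log2 fold change of the 10 was 0.12 at day 1 and 0.25 at day 12, beside -0.01 and 0.01 for all tested genes.

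The promoters shown here belong to the members called at day 12 for which a sequence was at hand, S100a4, Twist2 and Nt5e. RefSeq promoter windows of build GRCm38.p6 matched 7 of the 10 members, and Pdgfrb, Thy1 and Ly6a had no entry. Each sequence is the 250 bases before the start annotated by RefSeq, 5′ to 3′ on the gene's strand. By GENCODE, Nt5e begins at 88327197, so its window lies inside the gene by that annotation. Capitals mark the TATA-box letters TATAAA, the CAAT-box letters CCAAT and the GC-box letters GGGCGG on either strand, so a GC box on the other strand reads CCGCCC.
S100a4 promoter, chr3:90603520-90603769, plus strand: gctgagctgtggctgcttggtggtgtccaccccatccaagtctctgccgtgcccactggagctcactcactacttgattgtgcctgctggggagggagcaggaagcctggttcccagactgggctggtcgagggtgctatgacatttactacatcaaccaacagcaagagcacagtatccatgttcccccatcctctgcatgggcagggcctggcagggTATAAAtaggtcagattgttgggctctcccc
Twist2 promoter, chr1:91801211-91801460, plus strand: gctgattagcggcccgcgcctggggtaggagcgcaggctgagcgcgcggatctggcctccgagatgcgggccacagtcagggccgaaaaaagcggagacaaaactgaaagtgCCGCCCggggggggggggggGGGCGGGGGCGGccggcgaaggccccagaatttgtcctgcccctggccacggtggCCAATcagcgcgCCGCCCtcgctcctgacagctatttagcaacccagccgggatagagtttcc
Nt5e promoter, chr9:88327359-88327608, plus strand: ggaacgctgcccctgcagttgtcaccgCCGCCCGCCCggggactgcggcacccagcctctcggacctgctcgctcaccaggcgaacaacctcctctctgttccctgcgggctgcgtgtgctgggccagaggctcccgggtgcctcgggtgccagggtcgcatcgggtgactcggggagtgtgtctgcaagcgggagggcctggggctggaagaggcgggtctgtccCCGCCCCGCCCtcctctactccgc
S100a4 held a single TATAAA, which began 31 bases before the start, and neither of the other motifs. Of 32851 promoter windows of the same length in the table, 12.4% held TATAAA. Twist2 held 1 CCAAT and 4 GGGCGG matches, some of which run together in the capitals. Nt5e held 4 GGGCGG matches, of which some overlap. CCAAT was present in 33.8% of all windows and GGGCGG in 32.7%. The fourth motif searched, CANNTG, the E-box letters read by basic helix-loop-helix factors such as Twist1 and Twist2, occurred in 66.2% of all windows. It occurred 1 time in the window of Nt5e and 1 time in that of Pdgfra, and it had no match in those of S100a4, Twist1, Twist2, Prrx1 and Cd34. Twist1 held 1 match to each of the first 3 motifs, and Pdgfra, Cd34 and Prrx1 held none of these 3. A match of letters is a description and not a binding site.

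The count table was deep and its libraries differed in size by group. The total count per library lay between 92387376 and 133270973 at day 0, 74430465 and 105322757 at day 1, and 64648178 and 91338649 at day 12. Levels are given as CPM, the reads of a gene per mega reads of its library, with libraries scaled by the trimmed mean of M values (TMM), which assumes that most genes keep their level. The members were well covered: even the lowest, Twist2, had between 367 and 719 reads per library. Library numbers fell into a larger series, with 4, 3 and 4 libraries at days 0, 1 and 12, and a smaller one, with 1, 2 and 1. Within the 11 libraries of the larger series every member had the same call as over all 15, in each of the 3 comparisons.

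**Figure D1:**
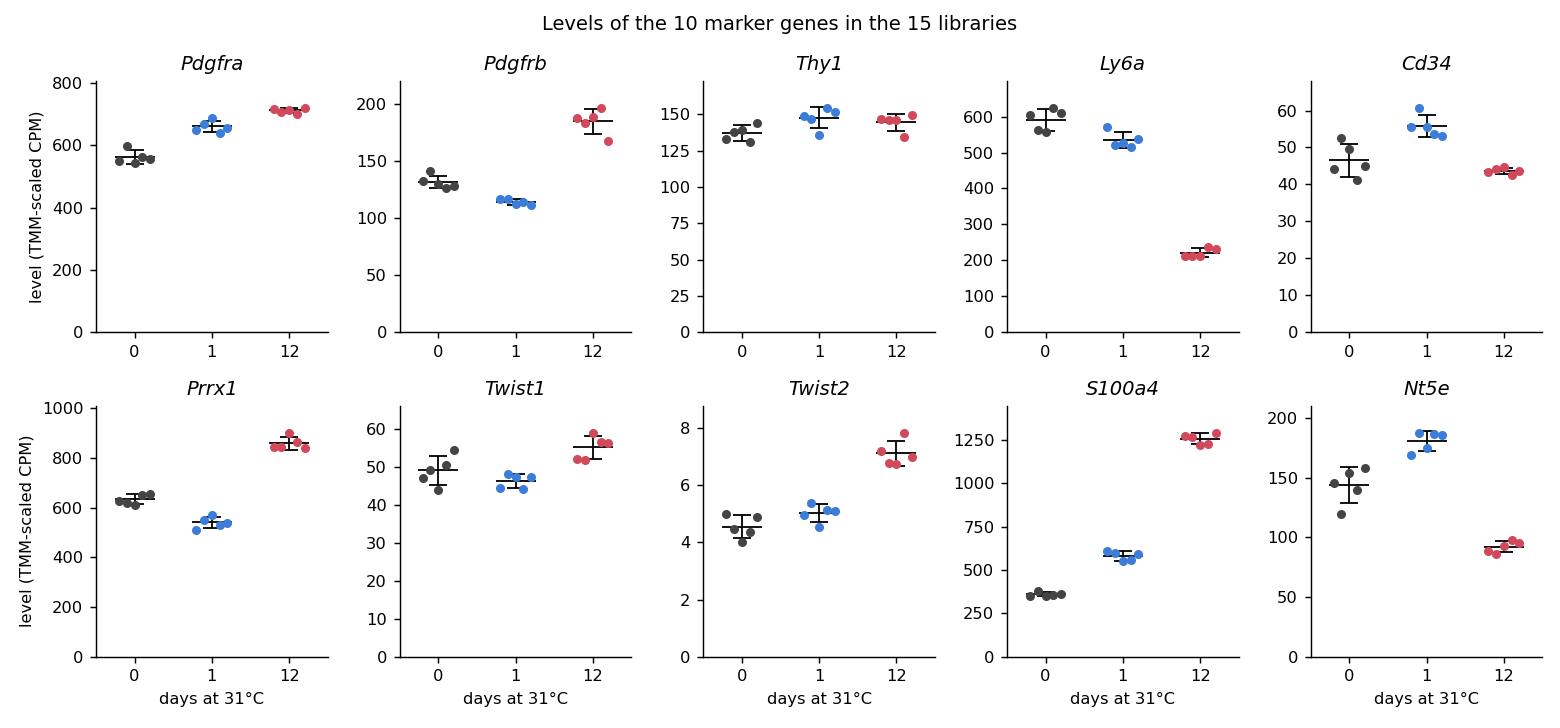
Level of each marker gene in every library, in TMM-scaled CPM on axes that start at 0, against days at 31°C. Points are the 5 libraries of a group and bars the mean ± SD; S100a4 climbs at both times, Ly6a and Nt5e are lowest at day 12, and Thy1 stays between 131 and 154 CPM.

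S100a4 made the largest move. At day 0 it was at 353, 382, 348, 359 and 364 CPM in replicates 1 to 5. At day 1 the values were 612, 597, 551, 556 and 595 CPM. At day 12 they were 1275, 1268, 1223, 1227 and 1293 CPM. The 3 groups were fully separate, with every day 1 library above every day 0 library and every day 12 library above both. The log2 fold change against day 0 was 0.69 ± 0.03 (SE) at day 1, with an adjusted p of 2.37e-15, and 1.80 ± 0.03 at day 12, with an adjusted p of 2.65e-23. The rise from day 1 to day 12 was 1.11 ± 0.03, with an adjusted p of 3.34e-19. At day 12 only 314 tested genes had a higher log2 fold change against day 0. The gene lies at chr3:90603771-90606045 on the plus strand of GRCm38, the assembly that mm10 names, in a cluster of S100 genes. By GENCODE, Gm42674 on the same strand covers 51.7% of the bases in its exons, and S100a3, its neighbour, had a mean of only 0.424 CPM. The annotation and strand setting used for counting were not given in the sources used here, so reads of the overlapping gene cannot be told apart.

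Related S100 genes, which encode other small calcium-binding proteins, were measured as well. Of 9 tested, 2 were called higher at day 12 and none lower, with a median log2 fold change of 0.32. S100a8, a gene best known from neutrophils, was at 0.441 ± 0.157 CPM at day 0 and 2.41 ± 0.378 CPM at day 12 (mean ± SD of 5 libraries), a log2 fold change of 2.46 ± 0.21 (SE). S100a6 rose from 488 ± 12.8 to 762 ± 25.4 CPM, a log2 fold change of 0.64 ± 0.03. S100a11, S100a13 and S100a16 had log2 fold changes of 0.42, 0.46 and 0.32, under the fold limit. S100a10 and S100a1 stood at -0.19 and -0.15. S100a4 thus had a larger value than each tested relative but S100a8.

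**Figure D2:**
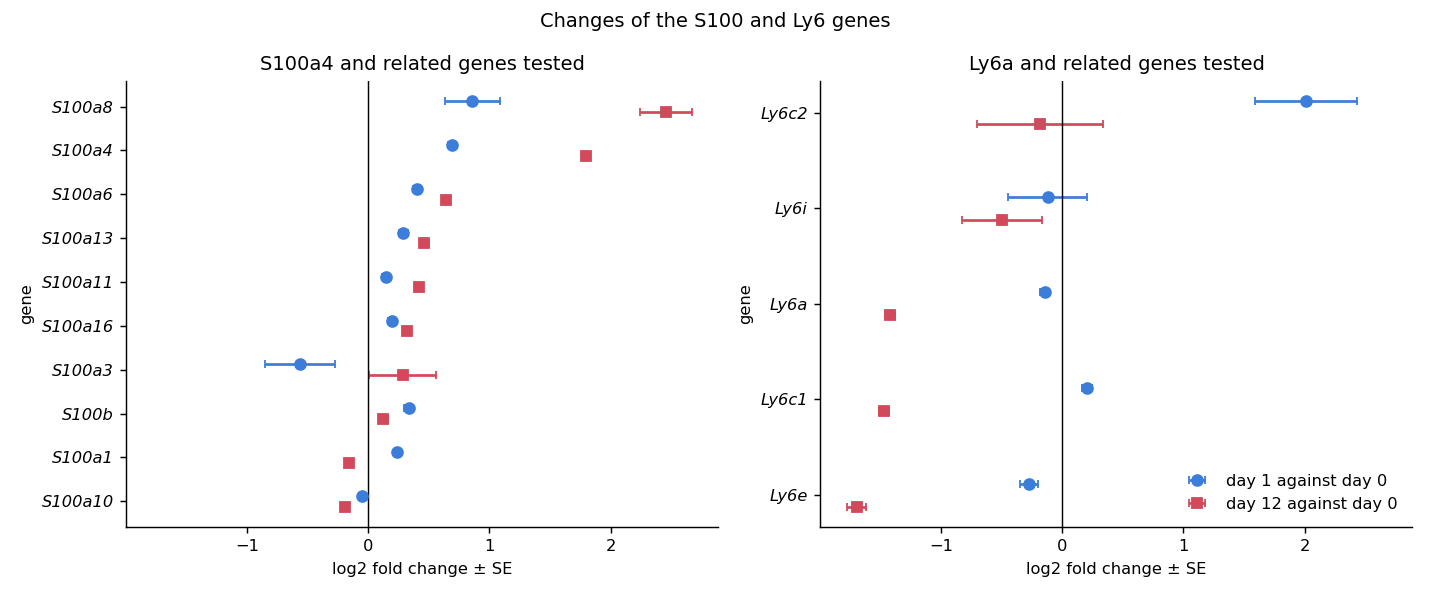
Log2 fold change ± SE against day 0 for the S100 genes (left) and the Ly6 genes (right) that were tested, at day 1 (circles) and day 12 (squares). S100a4 and S100a8 lie farthest right at day 12, and Ly6a, Ly6c1 and Ly6e lie between -1.42 and -1.69.

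Ly6a moved the other way and mostly after the first day. At day 0 its values were 603, 562, 556, 624 and 610 CPM. At day 1 they were 572, 520, 527, 515 and 538 CPM. At day 12 they were 213, 213, 211, 237 and 231 CPM. The first pair of groups overlapped, and all day 12 libraries lay below all others. Its log2 fold change was -0.15 ± 0.04 at day 1, with an adjusted p of 0.00165, and -1.42 ± 0.04 at day 12, with an adjusted p of 6.64e-20. Against day 1 the day 12 value was -1.27 ± 0.04, with an adjusted p of 1.30e-18. Scaled to 4 reference genes, Ly6a was at -0.58 at day 12 against day 0 and was not called. Ly6a lies at chr15:74994877-74998031 on the minus strand among near copies of itself, so reads may have been split between them and its level is uncertain to that extent.

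Of 4 other Ly6 genes tested, none was called higher at day 12 and 2 were called lower. Ly6c1, a surface antigen of endothelial and myeloid cells, went from 214 ± 13.9 to 77.4 ± 3.05 CPM, a log2 fold change of -1.47 ± 0.04. Ly6e, an interferon-inducible member, went from 628 ± 34.6 to 194 ± 33.7 CPM, a log2 fold change of -1.69 ± 0.08. Both stayed called as lower under each of the 4 other scalings tried. Ly6i, the nearest neighbour of Ly6a, had a mean of only 0.215 CPM and did not pass the test, with a log2 fold change of -0.50 ± 0.33. Ly6c2 was as scarce, at 0.0572, 0.23 and 0.0512 CPM at days 0, 1 and 12.

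Because S100a4 and Ly6a are read in the same library, their ratio does not depend on scaling. The ratio of S100a4 to Ly6a CPM was 0.612 ± 0.0419 (SD, n = 5) at day 0, 1.09 ± 0.0393 at day 1 and 5.70 ± 0.332 at day 12. Its ranges, 0.575 to 0.679, 1.05 to 1.15 and 5.18 to 5.99, did not touch.

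Nt5e turned direction between the 2 times. Its values at day 0 were 146, 120, 154, 140 and 158 CPM. At day 1 they were 169, 188, 175, 187 and 186 CPM. At day 12 they were 88.3, 86.5, 92.8, 97.5 and 95.1 CPM. All day 1 libraries exceeded all day 0 libraries, and all day 12 libraries were below both. Against day 0 the log2 fold change was 0.33 ± 0.05 at day 1, under the fold limit, with an adjusted p of 4.86e-06. At day 12 it was -0.64 ± 0.05 with an adjusted p of 8.58e-11, and its 95% interval, -0.75 to -0.53, reached inside the 1.5-fold limit. Nt5e was at -0.45 when libraries were scaled to total counts, at -0.38 with Hprt and Tbp as references and at 0.20 with 4 reference genes, and was not called under any of these 3. From day 1 to day 12 the fall was -0.98 ± 0.05, with an adjusted p of 7.07e-14. The spread at day 0 was the widest of any member, with a coefficient of variation of 10.5%, and replicate 2 was the lowest.

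CD73 makes adenosine outside the cell, and 7 other genes of that pathway were tested. At day 12, 2 were called higher and 1 lower, and the median log2 fold change was -0.20. Adora1, the adenosine receptor that restrains lipolysis in fat cells, went from 34.8 ± 2.17 to 15.6 ± 0.991 CPM, a log2 fold change of -1.16 ± 0.05. Ada, which degrades adenosine, went from 3.17 ± 0.123 to 6.37 ± 0.284 CPM, a log2 fold change of 1.01 ± 0.08. The other gene called higher, Adora2a, was scarce, at 0.137 and 0.583 CPM. At day 1 none of the 7 was called, although Adora1, at 0.24 on the log2 scale, lay on the same side of 0 as Nt5e.

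The PDGF receptors are the classic surface markers of fat progenitors and of mural cells, and they differed in time course. Pdgfra, the alpha receptor, was at 549, 598, 543, 564 and 557 CPM at day 0. At day 1 it was at 650, 670, 687, 641 and 656 CPM, and at day 12 at 717, 707, 714, 702 and 720 CPM. The 3 groups did not overlap, yet the fold limit was not reached: the log2 fold change was 0.23 ± 0.03 at day 1, with an adjusted p of 5.22e-08, and 0.34 ± 0.03 at day 12, with an adjusted p of 4.73e-11. Pdgfrb, the beta receptor, was at 132, 141, 130, 126 and 128 CPM at day 0. At day 1 it was at 116, 116, 112, 114 and 111 CPM, and at day 12 at 187, 183, 189, 196 and 167 CPM. Its day 1 libraries lay below all day 0 libraries and its day 12 libraries above them. For Pdgfrb the log2 fold change was -0.21 ± 0.04 at day 1, with an adjusted p of 1.77e-05, and 0.49 ± 0.04 at day 12, with an adjusted p of 7.14e-12, both under the fold limit. The difference between the days did pass, at 0.69 ± 0.04 with an adjusted p of 2.15e-14. Per kilobase of exon, the ratio of Pdgfra to Pdgfrb was 2.34 ± 0.0711 at day 0, 3.17 ± 0.124 at day 1 and 2.12 ± 0.145 at day 12, and the day 1 range, 3.06 to 3.36, lay above both others.

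Their ligands were expressed in the same cultures. Of the 4 ligand genes, 1 was called higher and 1 lower at day 12, and none at day 1. Pdgfc, the most abundant of them per kilobase of exon, was at 75.9 ± 3.77, 87.9 ± 2.25 and 84.6 ± 2.04 CPM at days 0, 1 and 12, with day 1 and 12 log2 fold changes of 0.21 and 0.16. Pdgfd, a ligand of the beta receptor, rose from 1.41 ± 0.177 to 5.28 ± 0.75 CPM at day 12, a log2 fold change of 1.90 ± 0.12. Pdgfa was at 25.9 and 21.4 CPM at days 0 and 12, a log2 fold change of -0.28. Pdgfb, at 0.311 and 0.0722 CPM, was the gene called lower.

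Prrx1, a homeobox factor of limb and craniofacial mesenchyme, followed the course of Pdgfrb. At day 0 it was at 628, 620, 611, 652 and 657 CPM. At day 1 its values were 512, 550, 570, 531 and 541 CPM. At day 12 it was at 844, 845, 903, 866 and 841 CPM. Every day 1 library was below, and every day 12 library above, all of day 0. The log2 fold changes were -0.23 ± 0.03, with an adjusted p of 3.93e-07, and 0.44 ± 0.03, with an adjusted p of 2.87e-12, both under the fold limit. From day 1 to day 12 the log2 fold change was 0.67 ± 0.03, which passed, with an adjusted p of 2.24e-15.

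The Twist genes encode close relatives that act in mesenchymal progenitors. Twist2 was at 4.99, 4.47, 4.00, 4.38 and 4.89 CPM at day 0. By day 1 its values were 4.97, 5.37, 4.52, 5.12 and 5.09 CPM. At day 12 it was at 7.20, 6.77, 6.75, 7.84 and 6.99 CPM. Days 0 and 1 overlapped, and day 12 lay above both. Against day 0 the log2 fold change was 0.14 ± 0.08 at day 1, with an adjusted p of 0.102, and 0.64 ± 0.07 at day 12, with an adjusted p of 2.65e-08. The 95% interval at day 12, 0.49 to 0.80, reached under the fold limit, and 46.5% of the exon bases of Twist2 are overlapped by Gm29100 on the other strand. Twist1 was at 47.1, 49.2, 43.9, 50.5 and 54.4 CPM at day 0. In the day 1 libraries it was at 44.5, 48.0, 47.2, 44.1 and 47.3 CPM, and at day 12 at 52.1, 51.9, 59.0, 56.5 and 56.2 CPM. Days 0 and 12 overlapped for Twist1, and day 12 lay above day 1 in every library. Its log2 fold changes were -0.08 ± 0.05, with an adjusted p of 0.111, at day 1 and 0.17 ± 0.05, with an adjusted p of 0.00211, at day 12. Per kilobase the ratio of Twist1 to Twist2 was 21.1 ± 1.56 at day 0, 18.0 ± 1.38 at day 1 and 15.2 ± 1.24 at day 12; neighbouring groups in this order overlapped, and days 0 and 12 did not.

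Other transcription factors of the mesenchyme were measured as well. Over all tested genes, 13% were called higher at day 12 and 16.2% lower. Of 14 factors tested, 1 was called higher at day 12 and none lower, with a median log2 fold change of -0.04. The gene called was Osr2, a zinc finger factor, at 2.23 ± 0.309 and 4.42 ± 0.315 CPM, a log2 fold change of 0.99 ± 0.10. Prrx2, the relative of Prrx1, was at 61.8 ± 2.76, 72.6 ± 4.82 and 69.5 ± 5.09 CPM at days 0, 1 and 12. Its day 1 log2 fold change was 0.23, against -0.23 for Prrx1.

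Thy1 and Cd34 showed the smallest differences at day 12. Thy1, a glycolipid-anchored protein of fibroblasts and thymocytes, was at 133, 138, 140, 131 and 144 CPM at day 0. At day 1 it was at 149, 147, 136, 154 and 152 CPM, and at day 12 at 147, 146, 146, 134 and 149 CPM. All 3 groups overlapped. The log2 fold change of Thy1 was 0.11 ± 0.04 at day 1, with an adjusted p of 0.00972, and 0.08 ± 0.04 at day 12, with an adjusted p of 0.0518 and a 95% interval of 0.00 to 0.15. Cd34, a sialomucin of progenitor and endothelial cells, was at 44.2, 52.5, 49.7, 41.3 and 45.1 CPM at day 0. In the day 1 libraries it was at 55.5, 60.7, 55.5, 53.8 and 53.0 CPM, and at day 12 at 43.3, 44.1, 44.6, 42.6 and 43.7 CPM. Day 1 stood above both other groups, and day 12 lay inside the range of day 0. For Cd34 the log2 fold change was 0.26 ± 0.05 at day 1, with an adjusted p of 4.84e-05, and -0.09 ± 0.05 at day 12, with an adjusted p of 0.0908 and a 95% interval of -0.19 to 0.01. From day 1 to day 12 it was -0.35 ± 0.05, under the fold limit.

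**Figure D3:**
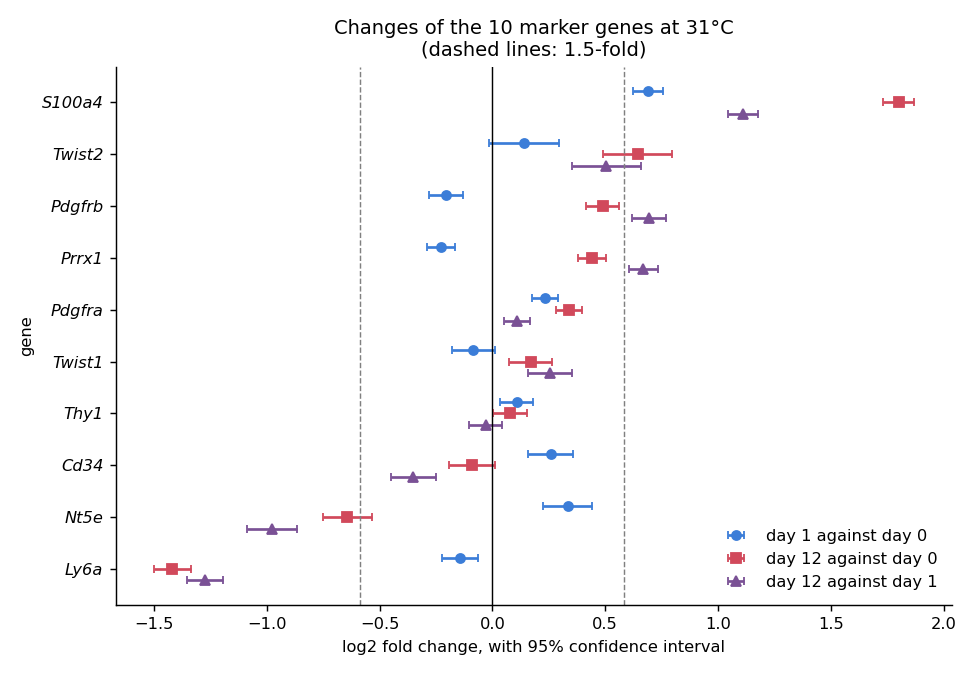
Log2 fold change of each marker gene with its 95% confidence interval, for day 1 against day 0 (circles), day 12 against day 0 (squares) and day 12 against day 1 (triangles). Dashed lines mark 1.5-fold; S100a4 lies beyond them in all 3 comparisons, and Pdgfrb and Prrx1 pass them between days 1 and 12 alone.

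Comparing day 12 with day 1 directly asks whether the longer stay differed from the short one. Pdgfrb, Prrx1 and S100a4 were called higher, against a background of 10.6%, and Ly6a and Nt5e lower, against 8.53%. Pdgfrb, Prrx1 and Nt5e lay on opposite sides of day 0 at the 2 times. The comparisons with day 0 share its libraries and are given side by side for that reason. Groups that did not overlap were also common genome-wide. At day 1, 4 members lay wholly above and 2 wholly below day 0, against 28.6% and 28.8% of tested genes. At day 12, 5 lay above and 2 below, against 33.0% and 31.7%. Between days 1 and 12 the counts were 6 and 3, against 26.5% and 25.9%.

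Levels of different genes were compared per kilobase of merged exon. S100a4 was the most abundant at every time, at 618 ± 22.2, 997 ± 46.5 and 2153 ± 52.8 CPM per kb, and Ly6a was next, at 491 ± 25.2, 444 ± 18.8 and 183 ± 10.1 CPM per kb. At day 0 Prrx1 (57.3 ± 1.84) and Pdgfra (56.1 ± 2.14) came after these and overlapped, followed by Thy1 (45.7 ± 1.81), Twist1 (30.1 ± 2.40), Pdgfrb (24.0 ± 1.03), Nt5e (16.7 ± 1.76), Cd34 (6.39 ± 0.617) and Twist2 (1.43 ± 0.127). All other neighbours in this order were separate. At day 1 Prrx1 dropped behind Pdgfra and Thy1 and overlapped Thy1, while Nt5e drew level with Pdgfrb, at 21.0 ± 0.978 and 20.8 ± 0.420 CPM per kb. At day 12 Prrx1 was back next to Ly6a, at 77.7 ± 2.35 CPM per kb, and Pdgfrb, at 33.7 ± 1.96, overlapped Twist1, at 33.9 ± 1.89. Nt5e at day 12, at 10.7 ± 0.532 CPM per kb, remained above Cd34, at 5.99 ± 0.106. The summed CPM of the 10 genes was 2660 ± 54.4, 2868 ± 39.0 and 3577 ± 20.2 at days 0, 1 and 12. Without S100a4 the sums were 2299 ± 49.1, 2285 ± 27.0 and 2320 ± 33.2 CPM, and these overlapped.

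**Figure D4:**
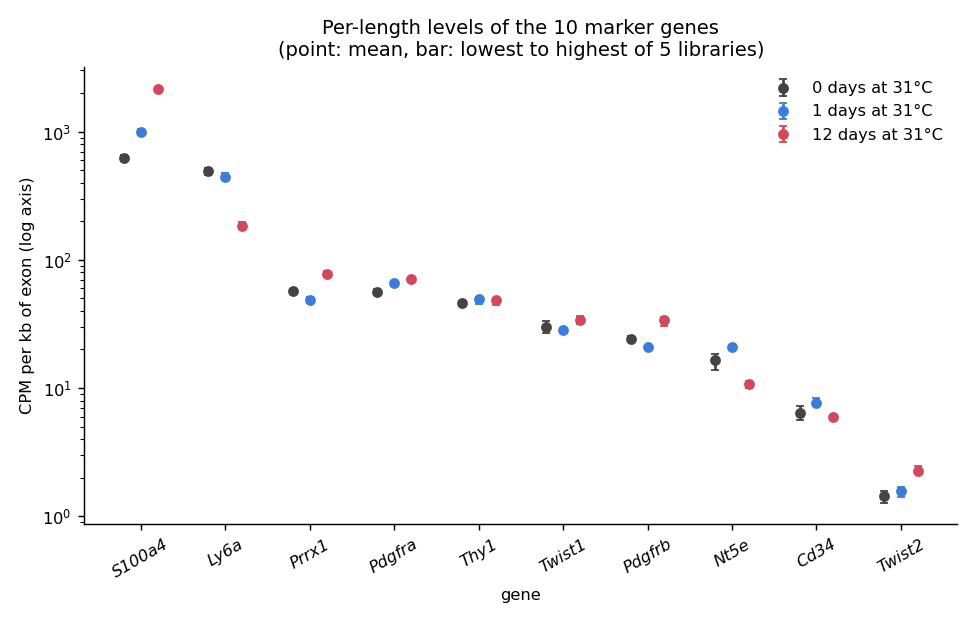
Levels of the marker genes in CPM per kb of exon on a log axis, ordered by the day 0 mean. Points are group means and bars run from the lowest to the highest of 5 libraries; S100a4 and Ly6a start near each other, at 618 and 491 CPM per kb, and end at 2153 and 183.

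Other genes of the stroma were grouped in lists by their published use. Their day 12 counts stand beside 13% of all tested genes called higher and 16.2% called lower. Of 10 further surface markers of mesenchymal stem cells, 1 was called higher and 1 lower at day 12, with a median log2 fold change of -0.28. Vcam1, an adhesion molecule, fell from 415 ± 32.9 to 133 ± 5.5 CPM, a log2 fold change of -1.64 ± 0.04, and was already called lower at day 1. Cd24a, a marker of early fat progenitors, rose from 60.8 ± 1.59 to 121 ± 2.84 CPM, a log2 fold change of 0.99 ± 0.03. Itgb1, Cd44 and Eng, which belong to the same panel, had log2 fold changes of 0.04, -0.29 and -0.28.

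Genes of the Dpp4-type progenitor, an early interstitial cell of fat, were partly missing from these cultures. Dpp4, Pi16 and Wnt2 had at most 12, 9 and 4 reads in any library and were not tested. Of the 6 genes tested, none was called higher and 3 were called lower at day 12, with a median log2 fold change of -0.65. Cd55, a complement regulator, fell from 32.7 ± 1.11 to 8.14 ± 0.779 CPM (-2.01 ± 0.06), and Anxa3, an annexin, from 85.3 ± 3.92 to 50.1 ± 2.23 CPM (-0.77 ± 0.04). Both were already called lower at day 1. The day 12 call of Anxa3 was lost with total counts, with Hprt and Tbp and with the 4 reference genes. Of 7 genes of committed preadipocytes, none was called higher and 2 lower at day 12, with a median log2 fold change of 0.05. Icam1 fell from 235 ± 8.27 to 96.5 ± 3.72 CPM (-1.28 ± 0.03), and Dlk1, an inhibitor of adipogenesis, from 38.3 ± 10.1 to 20.4 ± 3.37 CPM (-0.90 ± 0.13). Both calls were lost with the 4 reference genes, at -0.44 and -0.06. Zfp423 and Ebf1, transcription factors of that list, had log2 fold changes of 0.05 and -0.16.

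Of 6 genes of the F3-type stromal cell, which restrains adipogenesis, none was called higher and 4 lower at day 12, with a median log2 fold change of -0.75. These counts depended on the scaling. They were 1 and 2 with total counts and with Hprt and Tbp, and 2 and 0 with the 4 reference genes. F3 itself, tissue factor, fell from 123 ± 4.21 to 62.4 ± 1.98 CPM (-0.98 ± 0.03). Clec11a and Abcg1 had log2 fold changes of -0.76 ± 0.03 and -0.75 ± 0.04, and the last gene called, Gdf10, was scarce, at 0.308 and 0.0915 CPM. Of 12 general fibroblast genes, 1 was called higher and 4 lower, with a median log2 fold change of -0.41. Fbln1 fell from 119 ± 5.73 to 24.0 ± 1.35 CPM (-2.31 ± 0.04), Lum from 2631 to 1206 CPM (-1.13 ± 0.03), and Mfap5, a microfibril protein, rose from 2.48 ± 0.347 to 7.31 ± 0.735 CPM (1.55 ± 0.11). Vim, the filament protein of mesenchymal cells, did not pass the test, at 0.04 ± 0.03 on the log2 scale. At day 1 the counts of genes called higher and lower were 0 and 3 for the Dpp4-type list, 0 and 0 for the preadipocyte list, 0 and 2 for the F3-type list and 0 and 1 for the fibroblast list. Of the fibroblast genes called at day 12, Mfap5 moved in the direction of S100a4 and the other 4 did not.

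Markers of the cells in the dish gave the setting of these values. Of 11 adipocyte markers tested, 2 were called higher and 3 lower at day 1, and by day 12 the counts were 2 and 6. Under other scalings the day 12 counts were 4 and 4 (total counts), 4 and 3 (Hprt and Tbp) and 5 and 1 (4 reference genes). The summed level of these markers was 4666 to 4955 CPM at day 0, 5447 to 5764 at day 1 and 4485 to 4835 at day 12. Adipoq, the adiponectin gene, stood at a log2 fold change of -1.24 and Fabp4, a fatty acid carrier, of 0.97. The proliferation list, 8 genes, summed to 105 to 120 CPM at day 0, 123 to 135 at day 1 and 224 to 258 at day 12, with 2 called higher at day 1, 6 at day 12 and none lower. The chondrocyte list, kept because ears hold cartilage, summed to 3805 to 4583 CPM at day 0, 4079 to 4224 at day 1 and 1205 to 1309 at day 12, with 1 called higher at day 1, and by day 12 a count of 2 higher and 4 lower, and Comp (-2.02) made up most of it; Col2a1, which defines the type, was at 149 ± 15.8 and 182 ± 23.9 CPM. Of 10 pericyte and smooth muscle markers none was called higher, 4 were called lower at day 1 and 7 at day 12, with sums of 802 to 884, 800 to 956 and 609 to 733 CPM, while Rgs5 and Kcnj8, which define pericytes, were at 0.184 and 0.363 CPM at day 0. Their part in the members' differences was not tested.

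Cells of other lineages left little RNA. Endothelial markers summed to 8.34 to 10.1 CPM at day 0, 7.16 to 8.61 at day 1 and 5.01 to 5.84 at day 12, with none of 5 called at day 1, and 2 called higher and 2 lower by day 12, and Cdh5 had at most 6 reads. Leukocyte markers, mostly Cd14 and Cd68, were highest at day 1, with sums of 25.8 to 32.6, 41.6 to 47.6 and 28.2 to 32.1 CPM at the 3 times. Of 4 tested, 2 were called higher and 1 lower at day 1 and 1 was called higher at day 12, and Ptprc had at most 7 reads. Mesothelial markers summed to 10.0 to 11.7, 13.03 to 15.42 and 29.9 to 44.3 CPM, with 1 of 5 called lower at day 1 and another, Msln, called higher at day 12, while Wt1 had at most 1 read. Keratinocyte markers, nearly all Trp63, were lowest at day 1, at 48.0 to 55.2, 20.9 to 23.2 and 58.3 to 66.4 CPM. Of 3 tested, Trp63 alone was called at day 1, as lower, and the other 2 were called in opposite directions at day 12, and Krt5 and Krt14 had at most 11 and 2 reads. The part of these lists in the members' differences was not tested.

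The genes whose log2 CPM ran most like each member over the 15 libraries were found among the 12132 tested genes whose mean reached 1 CPM. For S100a4 these were Kif1c and Ppp4r1, with a Pearson r of 0.997 and 0.996. For Ly6a they were 1810037I17Rik and Tap1 (0.996 each), for Prrx1 Ch25h (0.990), and for Pdgfrb Nkain1 and Anxa2 (0.986 and 0.984). For Pdgfra they were Smap1 and Metap2 (0.988 each), for Nt5e Cst3 and Sdc4 (0.980 and 0.978), and for Twist2 Mms22l and Incenp (0.969 and 0.967). Twist1 was most like Uba3 and Mex3c (0.937 and 0.933), Cd34 most like Clcn2 and 2210015D19Rik (0.933 and 0.913), and Thy1, which varied least between groups, had the weakest match, Ddx20 and Ddx23 (0.824 and 0.811). The 15 points share libraries and fall into 3 groups, so these values describe the common time course and little else.

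Scaling set the zero point of every change given here. When libraries were scaled to their total counts, the median log2 fold change of all tested genes at day 12 became 0.21, and with Hprt and Tbp as references it became 0.27. With Hprt, Tbp, Gapdh and B2m it became 0.85, since B2m and Gapdh themselves had TMM-scaled log2 fold changes of -2.12 and -0.70. Under these 3 scalings 4, 5 and 8 members were called higher at day 12 and 1, 1 and 0 lower. Of all tested genes, 2982, 3563 and 9713 were then called higher and 1668, 1509 and 643 lower, beside 1852 and 2320 under TMM. Pdgfra was called higher with Hprt and Tbp and with the 4 reference genes, and Thy1, Cd34 and Twist1 with the latter alone. S100a4, Twist2, Pdgfrb and Prrx1 were called higher under each of these 3 scalings, Pdgfrb and Prrx1 without a call under TMM. Ly6a was below 0 under each, at -1.23, -1.16 and -0.58, but was not called under the last. Nt5e was at -0.45, -0.38 and 0.20 and lost its call under all 3. Relative to the median of all genes the values barely moved: that of Nt5e was -0.65, -0.66 and -0.66, and that of Ly6a -1.43 under all 3. This was bound to be so, since a scaling shifts all genes by nearly the same amount. It does not test whether the falls depend on the scaling. S100a8, S100a6, Ada, Pdgfd, Osr2, Cd24a and Mfap5 stayed called higher under all 3 scalings. Of those called lower, Cd55, Fbln1, Vcam1, Ly6c1 and Ly6e kept the call under all 3. Adora1, Dlk1, F3, Icam1 and Lum lost it under the last, at -0.31, -0.06, -0.14, -0.44 and -0.29. Abcg1, Anxa3 and Clec11a lost it under all 3 and, with values of 0.09, 0.07 and 0.08, turned above 0 under the last. The list counts given above are those under TMM and shifted as well. With the 4 reference genes, the preadipocyte list had 5 called higher and none lower, and the fibroblast list 5 and 1.

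**Figure D5:**
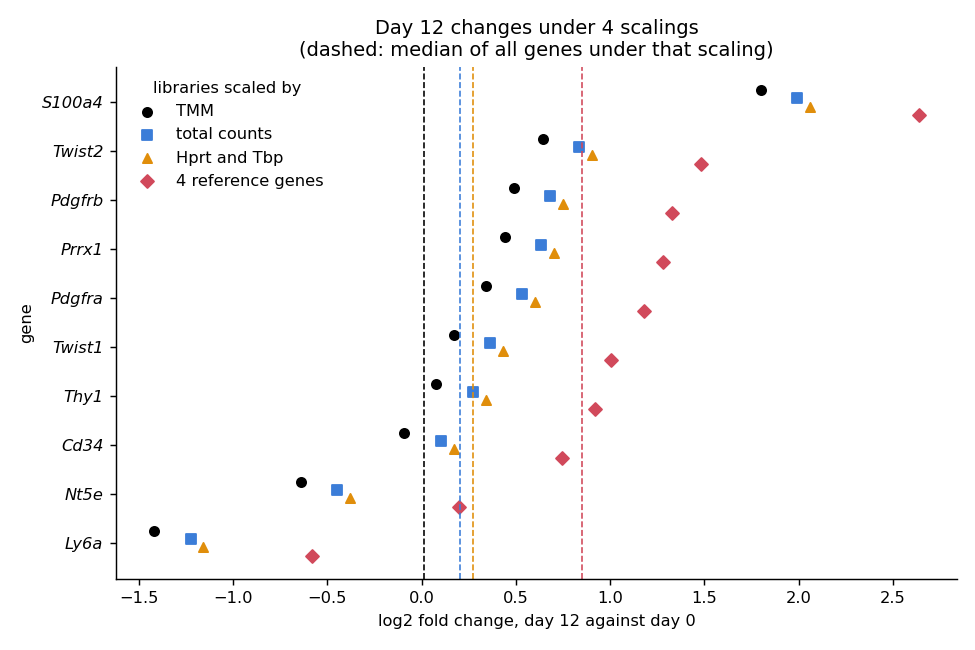
Log2 fold change of each marker gene at day 12 against day 0 under 4 ways of scaling the libraries; dashed lines give the median of all tested genes under each. The points of a gene shift together with the median, from 0.01 under TMM to 0.85 under the 4 reference genes, and Nt5e and Cd34 cross 0.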

How the data were processed

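RNA of differentiated adipocytes was sequenced in 15 libraries, 5 at each of 0, 1 and 12 days at 31°C, and libraries were grouped by their labels. The authors aligned reads to mm10 with TopHat2 2.0.13 and Bowtie2 2.2.1 and deposited raw counts per gene from HTSeq; its version, annotation and strand setting were not given in the sources used here. The deposited tables of DESeq2 fold changes, p-values and mean scaled counts and the rlog values were not used. Genes passing filterByExpr at a minimum count of 10 were fitted in edgeR 4.0.16 (R 4.3.3) with TMM factors (0.946 to 1.09), the quasi-likelihood test, all 15 libraries in one model and no covariate. Calls needed a Benjamini-Hochberg adjusted p under 0.05 over 14293 genes and a fold change over 1.5. The SE is the size of the log2 fold change over the root of F. A count of 0 allows up to 0.0238 to 0.0428 CPM (3 counts, counting error only). Exon lengths and overlaps came from GENCODE for GRCm38. Alternatives were DESeq2 1.42.0, other scalings, filters and sample sets, a replicate block and leaving out each library; scaling to Hprt and Tbp alone was added after seeing the data.

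Members, lists and tests were chosen with earlier results of these data known. All members are named; of each list, up to 3 genes called at day 12 with the largest change and a mean of at least 1 CPM, and other genes named beside them were chosen after their values were seen. S100a9, Ly6g, Tcf21, Cldn5 and Tyrobp, which the lists also hold, were not analysed here, and protein sequences were not used here. A result of 1 gene that is withheld is not reported here. Same-numbered libraries of different groups deviated together weakly at most: over 15 pairs the correlation of their deviations from the group means ran from -0.03 to 0.04.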

Additional observations from a re-analysis of the deposited data

Results flagged for a closer look

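The 5 members called between days 1 and 12 differed between these groups by the edgeR test of day 12 against day 1. The groups differ in length of stay and in the day of transfer, so these cannot be told apart. The log2 fold change was 0.69 for Pdgfrb, 0.67 for Prrx1, 1.11 for S100a4, -1.27 for Ly6a and -0.98 for Nt5e.

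In Thy1, day 12 replicate 4 stood apart from its group. It was lowest at 134 CPM, and the next library was at 146 CPM, a gap of 0.782 of the group's range against a critical value of 0.71. Chance gives about 1 such case in 20 groups, and 1 was found in 30 groups of 5 libraries.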

How the results depend on the processing

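Leaving out each library in turn changed no call of a member: at day 12 the log2 fold change of S100a4 ran from 1.79 to 1.82, of Ly6a from -1.44 to -1.40, of Nt5e from -0.70 to -0.61 and of Twist2 from 0.60 to 0.68. No member changed its call with DESeq2, its size factors, the library series as a covariate, the larger series alone, the 2 groups compared alone or no filter. The replicate block gave the same member calls, with 1851 genes higher and 2326 lower at day 12 against 1852 and 2320 without it, 1099 and 1912 against 1102 and 1918 at day 1, and 1504 and 1214 against 1510 and 1219 between the days. Pairing by replicate number was weak at most. Of 15 libraries, 10 correlated best with a library of their own number, but same-numbered correlations ran only from -0.03 to 0.04.

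Scaling changed more. At day 12 against day 0, total counts gave 4 members higher and 1 lower and 2982 genes higher and 1668 lower, Hprt and Tbp 5, 1, 3563 and 1509, and the 4 reference genes 8, 0, 9713 and 643. Against day 1, Hprt and Tbp gave 5 members higher, 3529 genes higher and 622 lower, the 4 reference genes 7 and 0 members and 10196 and 255 genes, and total counts 2248 and 843 genes. Values that changed sign were Cd34 at day 12 (0.10, 0.17 and 0.75 under total counts, Hprt and Tbp, and 4 reference genes), Nt5e (0.20 under 4 reference genes), and, against day 1, Thy1 (0.14, 0.30 and 0.76) and Cd34 (0.44 under 4 reference genes). The median of all genes moved with the scaling.

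Requiring a mean of at least 10 CPM left out Twist2, so 1 member was higher at day 12, and genes higher and lower were 419 and 745, 637 and 1051, and 413 and 485 in the 3 comparisons, since fewer genes were tested. By adjusted p alone, 5 and 3, 6 and 2, and 6 and 3 members passed, and 5049 and 5177, 5608 and 5342, and 4908 and 4690 genes. The sources do not say whether the 5 libraries of a group are separate cultures, and every member had at least 367 reads per library.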
